A study of Mus musculus with 2 samples.

Results

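The genes described here encode the machinery with which neurons store and release neurotransmitter: synaptic vesicle proteins, calcium sensors, the SNARE fusion proteins, the active zone, and the adhesion and scaffold proteins that join both sides of a synapse. They were chosen by name, as a list of 36 mouse gene symbols matched by gene identifier to the tables, and all 36 were found among 43346 annotated genes, 21474 of them protein-coding. The list also holds broadly expressed relatives (Vamp3, Snap23, Sypl, Syt11) and Gap43, a membrane protein of growing axon tips.

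Total RNA was sequenced from mouse hindbrain at embryonic day 10.5. There were 2 libraries and 1 group. Replicate 1 came from pooled hindbrain of 69 embryos and replicate 2 from 51. All embryos were of the strain B6NCrl, labelled healthy, of both sexes mixed, with no treatment or altered gene in the labels, and each library started from 10 ng of RNA with spike-in RNAs added. Both biosamples carry the same donor entry in the labels. No condition was compared, so the questions that the design allows are how high each gene stood and how far the 2 pools differed. A difference between the pools is 1 library against 1 library, so no p-value is given, and pooled embryos give no spread between animals.

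In release, a vesicle carrying the SNARE protein synaptobrevin (the Vamp genes) docks at the active zone and is primed there by Munc13 proteins (Unc13 genes). Synaptobrevin, syntaxin-1 (Stx1a) and SNAP-25 (Snap25) then zip into a complex, complexin clamps it, and calcium binding to synaptotagmin triggers fusion. In the embryonic hindbrain these genes come on as neurons are born and send out axons, before synapses form, while proliferating progenitors use ubiquitous SNAREs for ordinary membrane traffic.

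The gene tables held expected counts (reads, estimated where they match several genes) that summed to 38170090 in replicate 1 and 36382245 in replicate 2. Levels are TPM, a share of all transcripts that is corrected for length and scaled to the same total in each library. By TPM, replicate 2 had lower neuronal genes: all 12 neuron markers (Tubb3, Dcx, Stmn2 and others) were lower there, summing to 2447 TPM in replicate 1 and 1536 in replicate 2. Hindbrain markers were present, with 10 of 11 at 1 TPM or more in both libraries, and they too were mostly lower in replicate 2: 9 of the 10 with enough counts, with a median log2 ratio of -0.54 and sums of 302 and 231 TPM. The spike-ins held 13.0% of all TPM in replicate 1 against 7.82% in replicate 2. TPM is a share, so in tissue RNA fewer neurons, less RNA per neuron and more RNA from other cells cannot be told apart.

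At least 1 TPM in both libraries was reached by 32 of the 36 genes, against 58.8% of protein-coding genes. This shows presence and not a feature of release genes in particular, since the list was drawn up by name with earlier results known. The other 4 were low: Sv2c, Pclo and Rims1 passed 1 TPM only in replicate 1, and Sv2b in neither. The 36 genes summed to 893.9 TPM in replicate 1 against 658.6 TPM in replicate 2, and Gap43 alone gave 221 and 135 of those. The list spanned from 0.61 TPM for Sv2b to 178 TPM for Gap43 as a mean of both libraries, with a median of 7.38 TPM. The plot of levels by role shows the broad relatives, Vamp2, Rab3a and Gap43 on the right and the active zone giants on the left.

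**Figure D1:**
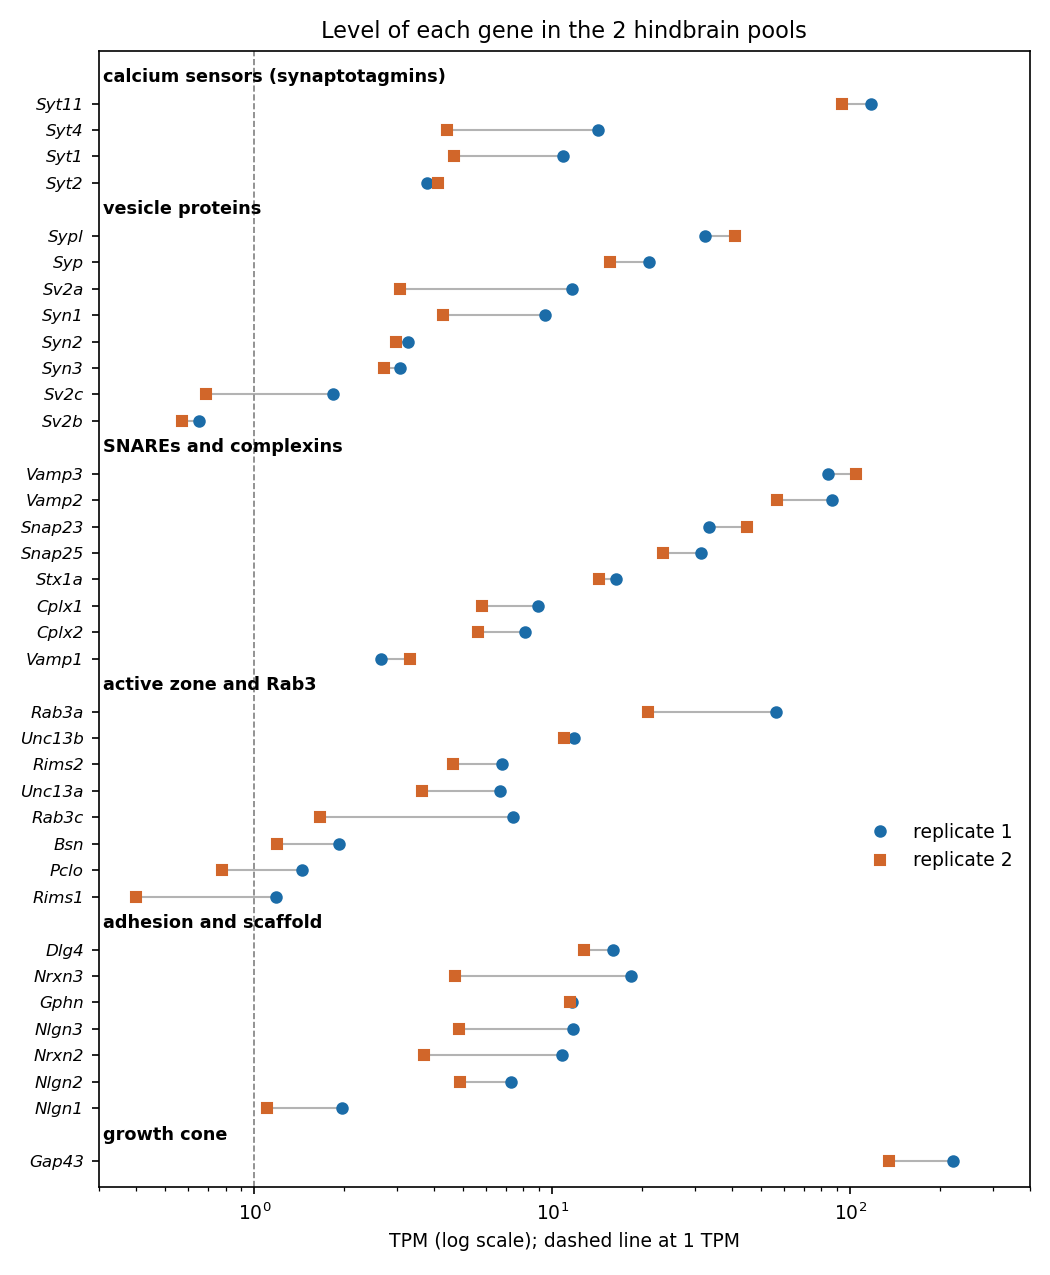
TPM (log scale) of the 36 genes, grouped by role, in replicate 1 (circles) and replicate 2 (squares), with a grey line joining the 2 values of a gene. Gap43 was highest at 221 and 135 TPM, Sv2b stayed below 1 TPM in both, and for 31 of 36 genes the point of replicate 2 lies to the left of that of replicate 1.

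Gap43 (chr16:42248442-42340651, minus strand; all coordinates are mm10) is the growth cone protein of the list and a mark of axon growth. It reached 221 TPM in replicate 1 and 135 TPM in replicate 2, a mean of 178 ± 61.1 TPM (SD, n = 2), higher than 96.0% of protein-coding genes. Both libraries had it as the highest gene of the list. On counts scaled between libraries (log2 ratio of TMM-scaled CPM, that is counts scaled to library size, replicate 2 over replicate 1), its ratio was -0.79. Nearly all of its TPM, 99.9% in replicate 1 and 100% in replicate 2, came from the transcript Gap43-201.

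Among the synaptotagmins, Syt11, a family member that does not bind calcium and acts in vesicle traffic outside neurons too, was far above the calcium sensors. Syt11 stood at 117 TPM in replicate 1 against 93.6 TPM in replicate 2. Syt1 (chr10:108497650-109010982, minus strand), the fast calcium sensor of forebrain synapses, stood at 10.9 and 4.66 TPM. Syt4, an atypical synaptotagmin of dense-core vesicles, stood at 14.3 and 4.42 TPM. Both were lower in replicate 2, with log2 ratios of -1.32 for Syt1 and -1.76 for Syt4. Syt2 (chr1:134646677-134762593, plus strand), the fast sensor that dominates in the mature hindbrain and spinal cord, was the lowest of the 4 at 3.79 and 4.13 TPM. The ratio of Syt2 was 0.31, the highest of all 36 genes, and the deposited TPM intervals of the 2 libraries overlapped (3.06 to 5.08 and 3.59 to 5.47). The 2 fast sensors therefore differed in replicate 1, where Syt1 was above Syt2, and lay close together in replicate 2, where the Syt1 interval of 4.34 to 5.39 TPM fell within that of Syt2. The deposited tables do not state which confidence level these intervals have, and they cover estimation within a library, not embryos.

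The SNAREs and complexins had the highest summed level of any role, 272 TPM in replicate 1 against 258 TPM in replicate 2. Of these genes 8 of 8 were detected (58.8% of protein-coding genes). Vamp2 (chr11:69088490-69092384, plus strand), the synaptobrevin of most synapses, stood at 86.5 and 56.6 TPM. Snap25 (chr2:136713453-136782428, plus strand), the SNARE attached to the plasma membrane, stood at 31.4 and 23.4 TPM. Stx1a, its syntaxin partner, was at 16.4 and 14.4 TPM. These 3 form the neuronal fusion complex, and each had a lower scaled count in replicate 2, by log2 ratios of -0.84, -0.55 and -0.27. For Stx1a the deposited intervals of the libraries overlapped (15.0 to 17.8 and 13.0 to 15.7 TPM). Its coding transcript Stx1a-201 was not lower in replicate 2, at 5.89 and 6.20 TPM. Vamp1, the synaptobrevin that is prominent in adult hindbrain and spinal cord, was the lowest SNARE at 2.65 and 3.32 TPM. The ratio of Vamp1 was 0.26, so that of the synaptobrevins Vamp2 was lower and Vamp1 higher in replicate 2. The complexins, which bind the assembled SNARE complex, were alike in level: Cplx1 had 8.94 and 5.80 TPM, and Cplx2 had 8.12 and 5.63 TPM. Their ratios of -0.70 and -0.61 lay close together as well.

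Snap23 and Vamp3, the SNAREs that take the same places in membrane traffic outside neurons, ran the other way. Snap23 was at 33.5 TPM in replicate 1 against 44.9 TPM in replicate 2, and Vamp3 at 84.4 and 104 TPM. Their log2 ratios were 0.30 and 0.23. In replicate 1 Snap25 and Snap23 were nearly level, with a log2 difference of -0.09, and in replicate 2 Snap25 was lower by -0.93. Vamp2 over Vamp3 was 0.04 in replicate 1 and -0.88 in replicate 2, so the order of these 2 genes differed between the pools. Synaptophysin and its relative differed in the same manner. Syp, a major vesicle membrane protein of neurons, was at 21.2 and 15.6 TPM, and Sypl, its broadly expressed relative, at 32.4 and 40.9 TPM. The log2 difference of Syp over Sypl was -0.61 in replicate 1 and -1.39 in replicate 2. Syt1 over Syt11 was -3.42 and -4.30. In all 4 pairs the gene of neuronal release was lower relative to its relative in replicate 2, by -0.77 to -1.07 on the log2 scale of the scaled counts. The pairs were chosen with earlier results known, and other members of these families did not follow them. Vamp1 had a ratio of 0.26 beside 0.23 for Vamp3, and Syt2 had 0.31 beside -0.35 for Syt11. A difference between 2 genes of the same library does not depend on how the libraries are scaled.

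**Figure D2:**
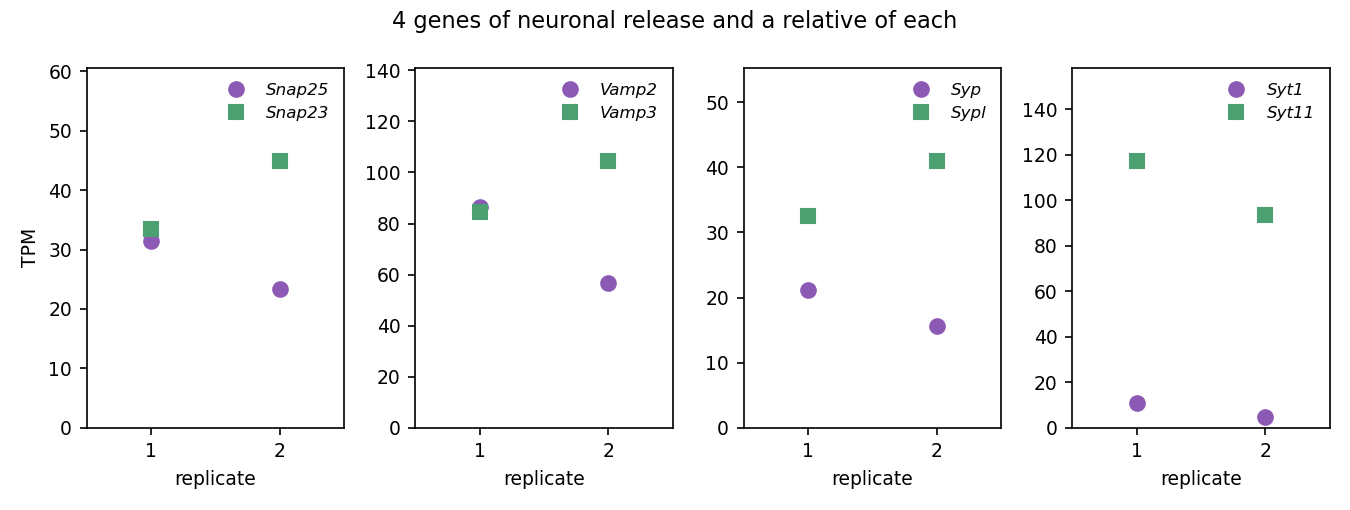
TPM in replicates 1 and 2 of 4 genes of neuronal release (circles) and a relative of each (squares), each panel with its own axis from 0. In replicate 1 Snap25 and Snap23, and Vamp2 and Vamp3, lie on nearly the same level (31.4 and 33.5, 86.5 and 84.4 TPM), and in replicate 2 the relative is higher in every panel.

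Several of these genes are spliced into forms that differ in protein, and the transcript tables gave a share of each. Snap25 has 2 alternative copies of exon 5, of which a transcript carries either the upstream or the downstream copy (known as 5a and 5b). The sequences are shown because the copies are a difference between the 2 leading Snap25 transcripts, with capitals at the bases that differ. They come from the GENCODE M21 transcripts, plus strand, at chr2:136769743-136769860 and chr2:136770057-136770174.
Snap25 upstream exon 5: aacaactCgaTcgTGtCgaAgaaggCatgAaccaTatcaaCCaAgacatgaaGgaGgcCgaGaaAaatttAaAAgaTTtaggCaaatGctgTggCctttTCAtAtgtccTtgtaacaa
Snap25 downstream exon 5: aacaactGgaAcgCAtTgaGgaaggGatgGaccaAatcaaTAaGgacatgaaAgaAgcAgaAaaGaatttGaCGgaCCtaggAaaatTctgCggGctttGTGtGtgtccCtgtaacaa
Each copy has 118 bases, 31 of which differ, and the proteins of 206 residues differ at 9. Snap25-201, with the downstream copy, was at 26.9 TPM in replicate 1 against 18.1 TPM in replicate 2. Snap25-202, with the upstream copy, was at 3.61 and 4.52 TPM. The downstream copy thus had 88.2% and 80.0% of the TPM of both. These models differ in their first exon (148 and 123 bases) and last exon as well, the last with 1354 bases in Snap25-201 and 277 bases in Snap25-202. Reads from the longer 3′ end go to the downstream model whichever exon 5 they came with, so the share does not measure the choice of exon 5 alone. By counts the share was 94.3% and 89.8%.

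Stx1a was the only SNARE whose leading transcript differed between the libraries. The forms differ by where exon 9 begins, and the models Stx1a-201 and Stx1a-204 also by their first exon (129 and 51 bases), so their shares do not measure the exon 9 start alone. The early start adds 83 bases (chr5:135048911-135048993, plus strand), a length that is no multiple of 3 and so shifts the reading frame, and the model with it, Stx1a-204, is annotated as a target of nonsense-mediated decay. The added stretch is printed with capitals at its last 2 bases, the AG that precedes the later start.
Stx1a early part of exon 9: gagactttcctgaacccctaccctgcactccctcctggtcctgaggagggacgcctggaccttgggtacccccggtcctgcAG
Transcripts with the early start (Stx1a-204 and Stx1a-205) had 8.45 TPM in replicate 1 against 6.39 TPM in replicate 2. The late start, Stx1a-201, which encodes the protein of 288 residues, had 5.89 and 6.20 TPM. The early start therefore had 58.9% and 50.8% of both, and its TPM was above that of the coding form in each library. In replicate 2 this holds only with Stx1a-205, a retained-intron model at 1.55 TPM, since Stx1a-204 alone had 4.84 TPM. The deposited intervals of Stx1a-204 and Stx1a-201 overlapped in each library (5.51 to 9.69 and 4.09 to 7.94 TPM in replicate 1), so their order is not settled by these values. The frame-shifted model Stx1a-204 held 49.5% and 33.7% of the gene's TPM.

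Vamp1 and Vamp2 both have a form in which intron 4 is kept. Vamp1-203, which keeps it, had 1.23 TPM in replicate 1 against 2.62 TPM in replicate 2, while Vamp1-201, which splices it out, had 1.06 and 0.41 TPM. The kept form thus had 53.7% and 86.5% of both, the widest difference between the pools among the 9 transcript choices compared. The models Vamp1-203 and Vamp1-201 also differ in their first exon (147 and 177 bases), so this share does not measure intron 4 alone. In replicate 2 the level of Vamp1-201 rests on 26.8 expected counts. The deposited intervals of Vamp1-203 did not overlap between the libraries (0.75 to 1.70 and 1.96 to 3.06 TPM), and those of Vamp1-201 did. For Vamp2 the kept form had 19.4% and 28.6%, but its model is 1113 bases long against 2205 bases for the spliced form, and by counts the shares were 10.4% and 16.1%.

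The vesicle proteins were spread over a wide range, with 6 of 8 detected (58.8% of protein-coding genes). Apart from Syp and Sypl, Sv2a, a vesicle glycoprotein, was the highest in replicate 1 at 11.7 TPM and was at 3.09 TPM in replicate 2. The ratio of Sv2a (chr3:96181151-96195521, plus strand) was -1.99, which is 3.97-fold lower on scaled counts. Its relatives were low: Sv2c had 1.84 and 0.69 TPM, and Sv2b had 0.65 and 0.57 TPM. The counts of Sv2c were 175 and 69, and of Sv2b 94 and 74, the fewest of the list beside Rims1. The SV2 family was thus carried by Sv2a in both pools. The synapsins, which tether vesicles to each other and to actin, were led by Syn1 (chrX:20860511-20921004, minus strand) at 9.42 and 4.28 TPM. Syn2 had 3.27 and 2.99 TPM, and Syn3 had 3.09 and 2.72 TPM. Syn1 had a ratio of -1.21, whereas Syn2 and Syn3 had -0.26 and -0.23 and overlapping intervals. Syn3 shares 1733 bases of exon with Timp3 on the opposite strand, so part of its signal could not be assigned with certainty.

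The synapsins were also where the forms differed. The last exon of Syn1 can begin at either of 2 places. The early start adds 38 bases (chrX:20861572-20861609, minus strand), which changes the frame and the C-terminal end of the protein, giving the forms Ia of 706 residues (Syn1-201) and Ib of 670 residues (Syn1-202). Capitals mark the AG before the later start.
Syn1 early part of last exon: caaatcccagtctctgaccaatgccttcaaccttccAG
Syn1-201 had 5.64 TPM in replicate 1 against 1.55 TPM in replicate 2, and Syn1-202 had 3.77 and 2.73 TPM. The share of form Ia was therefore 59.9% in replicate 1 and 36.2% in replicate 2, and the leading form was not the same. The models also differ in their first exon (506 and 592 bases), but are alike in length, 3209 and 3261 bases, so the share by counts was nearly the same, 59.5% and 35.8%. Intervals of Syn1-201 did not overlap between the libraries (3.11 to 6.97 and 0.78 to 2.83 TPM), while those of Syn1-202 did. Within each library the intervals of the 2 forms overlapped. Syn2 differed in its leading transcript as well, with Syn2-201 at 48.0% and 72.1% of the gene's TPM.

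The active zone and Rab3 genes were all lower in replicate 2, 8 of 8, where 50.6% of all 13160 protein-coding genes with a ratio were lower. Rab3a (chr8:70754679-70758677, plus strand), the vesicle GTPase that binds RIM proteins, was the highest of them at 56.2 TPM in replicate 1 against 20.96 TPM in replicate 2. Rab3c, a close relative, stood at 7.38 and 1.66 TPM. The ratio of Rab3a was -1.50. That of Rab3c (chr13:110054187-110280996, minus strand) was -2.22, or 4.67-fold, the lowest of the 36 genes, with 1675 and 338 counts behind it. The priming factors were present without such a gap. Unc13b (Munc13-2) stood at 11.8 and 10.9 TPM, with overlapping intervals, and Unc13a (Munc13-1), the main form of mature synapses, at 6.67 and 3.64 TPM. Unc13b was thus the higher Munc13 in both pools. Part of the Unc13a level came from Unc13a-206, a retained-intron model of 944 bases with 39.0% and 44.5% of the gene's TPM, against 36.2% and 42.3% for the coding Unc13a-201.

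The large scaffolds bassoon and piccolo and the RIM gene Rims1 were near the detection limit. Bsn (bassoon) had 1.93 and 1.19 TPM, Pclo (piccolo) 1.44 and 0.78 TPM, and Rims1 1.18 and 0.40 TPM. Rims2, the other RIM gene, was at 6.76 and 4.65 TPM, and so was the higher RIM in both. These transcripts are long, and the TPM of Bsn still rests on 515 and 251 counts, against 115 and 49 for Rims1. Log2 ratios were -0.95 for Bsn, -1.01 for Pclo, -1.12 for Rims1 and -0.61 for Rims2. Bsn, Pclo and Rims1 were thus low in both pools, while the vesicle GTPase Rab3a was among the 6 highest genes of the list by mean TPM. In replicate 2 alone it stood below Snap25, which had 23.4 TPM.

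Adhesion and scaffold genes were all detected, 7 of 7 (58.8% of protein-coding genes), and all lower in replicate 2 (50.6%). The neurexins, presynaptic receptors for neuroligins, were among the genes with the widest gap between the pools: Nrxn3 had 18.4 and 4.70 TPM, and Nrxn2 had 10.8 and 3.71 TPM. Nrxn3 (chr12:88722876-90334935, plus strand, the longest locus of the list at 1612 kb) had a ratio of -2.06, and Nrxn2 -1.83. In these genes much of the TPM sat in short models without a full coding sequence. Nrxn3-204, a retained-intron model, held 55.7% and 58.1% of Nrxn3, and Nrxn2-213, a processed transcript of 576 bases, held 35.3% and 40.7% of Nrxn2. Neurexins start at an upstream promoter (alpha forms) or an internal one (beta forms). Of the coding models compared, alpha forms had 64.3% and 66.2% for Nrxn3, but 32.7% and 30.0% for Nrxn2. The alpha models are longer, and by counts their shares were 83.0% and 81.8% for Nrxn3 and 47.7% and 45.3% for Nrxn2. In replicate 2 the Nrxn3 shares rest on 0.47 and 0.24 TPM, and the Nrxn2 shares on 0.27 and 0.63 TPM. Coding models counted in neither form were Nrxn3-210 (0.43 and 0.36 TPM), Nrxn3-201 (0.24 and 0 TPM) and Nrxn2-209 (0.93 and 0.31 TPM). Among the models compared, both measures put alpha forms above beta forms for Nrxn3 and below them for Nrxn2.

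The neuroligins are the postsynaptic partners of neurexins. Nlgn3 was the highest at 11.7 and 4.86 TPM, Nlgn2 followed at 7.28 and 4.91 TPM, and Nlgn1 was low at 1.97 and 1.10 TPM. Their ratios were -1.01, -0.66 and -1.07. Nlgn2 acts at inhibitory synapses and Nlgn1 at excitatory ones, and Nlgn2 was above Nlgn1 in each library. Nlgn3 and Nlgn1 each have an optional exon of 60 bases in the extracellular domain. They are shown side by side because the exons have the same length and 43 of 60 positions alike, with capitals at the positions that differ (Nlgn1 chr3:25920178-25920237, minus strand; Nlgn3 chrX:101307075-101307134, plus strand).
Nlgn1 60-base exon: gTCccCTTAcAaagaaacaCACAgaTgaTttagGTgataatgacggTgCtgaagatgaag
Nlgn3 60-base exon: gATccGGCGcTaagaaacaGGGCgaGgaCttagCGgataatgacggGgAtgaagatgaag
Models with the exon had 57.6% in replicate 1 and 81.0% in replicate 2 of the Nlgn3 TPM compared, and 53.8% and 44.0% for Nlgn1. The Nlgn1 model with the exon has 11807 bases and that without it 3013, so other parts of the transcript weigh on the share, which by counts was 82.2% and 74.8%. The same holds for Nlgn3, whose models have 8465 and 1852 bases and whose share by counts was 86.6% and 95.3%, so neither share measures the choice of the exon alone. Nlgn3 shares 3823 bases of exon with another gene model on the same strand, and its expected counts, 1754 and 826, are not whole numbers, so reads were divided between models.

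Of the postsynaptic scaffolds, Dlg4 (PSD-95), which organises excitatory synapses, stood at 16.0 and 12.8 TPM, and Gphn (gephyrin), which anchors inhibitory receptors and also serves molybdenum cofactor synthesis in all cells, at 11.6 and 11.5 TPM. Gphn had the ratio closest to 0 of the 36 genes, -0.10, with a mean of 11.6 ± 0.11 TPM (SD, n = 2). The largest part of Dlg4, 36.2% and 46.3%, was assigned to Dlg4-208, a model of 845 bases, which raises its TPM: on counts Dlg4 had 492 and 290, fewer than Nlgn2 with 992 and 596.

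**Figure D3:**
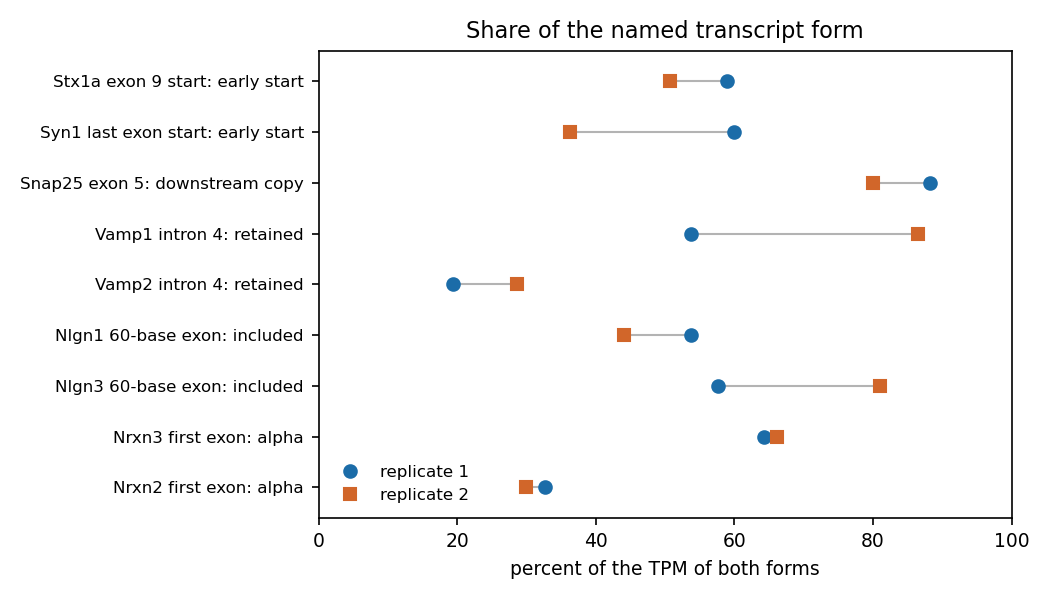
Share (percent of the TPM of both forms) of the named form for 9 transcript choices in replicate 1 (circles) and replicate 2 (squares). Vamp1 with intron 4 kept (53.7% and 86.5%) and Syn1 with the early start (59.9% and 36.2%) lie farthest apart, and the neurexin choices lie closest together.

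Leading transcripts, those with the highest TPM of a gene, were the same in both libraries for 25 of 29 detected genes with more than 1 transcript, and the share over all detected protein-coding genes was 90.9%. The 4 that differed were Stx1a, Syn1, Syn2 and Nlgn1. For Nlgn1 the call is near a tie: in replicate 2 Nlgn1-203 and the retained-intron Nlgn1-204 were both at 0.35 TPM and Nlgn1-205 at 0.33 TPM, and by counts Nlgn1-205 led in both libraries. Protein-coding models held 92.6% of the list's TPM in replicate 1 and 93.3% in replicate 2, and retained-intron models 4.83% and 4.55%. Over all detected protein-coding genes, retained-intron models held 5.49% and 5.59%. Exons of 13 of the 36 genes overlap exons of a gene on the opposite strand, and whether counting used strand is not given in the sources used here.

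Between the pools, 31 of 36 genes had a lower scaled count in replicate 2, against 50.6% of 13160 protein-coding genes with a CPM of at least 1 in both. The 5 with a higher one were Syt2, Snap23, Sypl, Vamp1 and Vamp3. The median log2 ratio of the list was -0.69, beside 0.00 over those 13160 genes, whose values ran from -0.86 to 0.53 between the 5th and 95th percentile. A ratio at least 2-fold lower was seen in 13 of the 36, against 3.72% of all, and at least 2-fold higher in 0 of 36, against 0.775%. The 13 were Rab3c, Nrxn3, Sv2a, Nrxn2, Syt4, Rab3a, Syt1, Sv2c, Syn1, Rims1, Nlgn1, Pclo and Nlgn3, with the last 2 just past the limit at -1.01 each. Bsn, at -0.95, was just short of it.

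The common biological coefficient of variation between the pools, estimated by edgeR over 14385 genes, was 0.204, and it comes from these same 2 libraries. Low genes vary more: among genes with a mean of 1 to under 5 TPM, 8.57% were at least 2-fold lower, as were 4 of the 9 members there. Among genes of 5 to under 20 TPM it was 4.31%, and 7 of 17 members. Among genes of 20 TPM or more it was 1.16%, and 1 of 8 members, Rab3a. The deposited TPM intervals of the 2 libraries overlapped for 9 of 36 genes: Stx1a, Dlg4, Gphn, Unc13b, Syt2, Syn2, Vamp1, Syn3 and Sv2b. The share over all genes was not computed, so this count does not set the list apart from other genes.

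**Figure D4:**
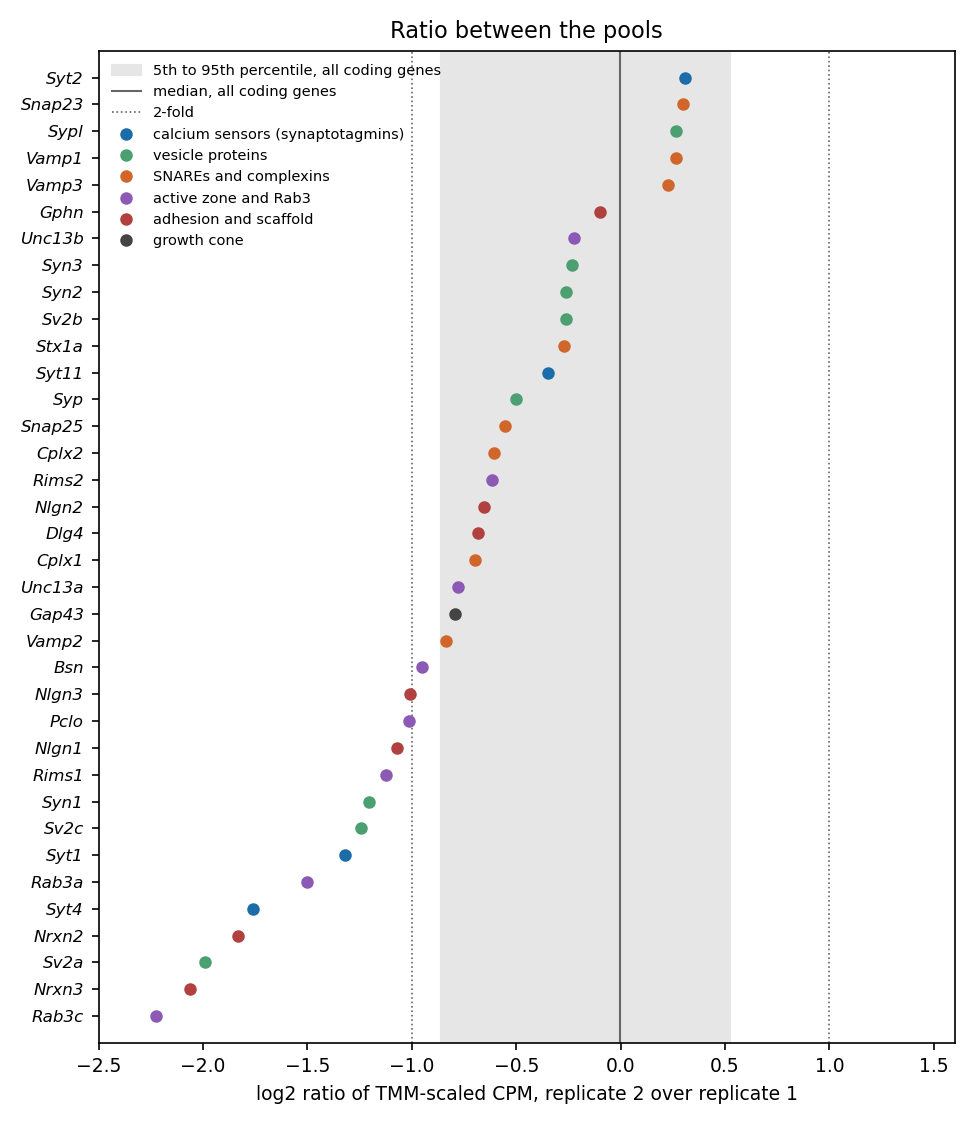
Log2 ratio of TMM-scaled CPM, replicate 2 over replicate 1, for the 36 genes in order, coloured by role, with the 5th to 95th percentile of 13160 protein-coding genes in grey and their median as a line. From Rab3c at -2.22 to Syt2 at 0.31, 14 genes lie below the grey band and none above it. With spike-in scaling all ratios shift up and 21 of 36 are above 0 (the share over all genes was not computed).

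Scaling to the spike-ins in place of the genes turns the sign for many members. With it the median of all 13160 genes was 0.81 and that of the list 0.13, with 15 genes below 0 and 21 above. Relative to the median of all genes, 31 of 36 members were lower with either scaling. On the spike-in scale 4 genes stayed at least 2-fold lower: Rab3c at -1.41, Nrxn3 at -1.24, Sv2a at -1.17 and Nrxn2 at -1.02. The shares of all genes below 0 or at least 2-fold lower on the spike-in scale were not computed. These counts therefore do not set the list apart from other genes. On that scale Snap23, Vamp3, Sypl, Vamp1 and Syt2 were at 1.12, 1.05, 1.08, 1.08 and 1.12. Roles differed in their medians with scaling to genes, from -0.38 for vesicle proteins and -0.41 for SNAREs and complexins to -0.98 for active zone and Rab3 genes and -1.01 for adhesion and scaffold genes. Within the list the ratio had a rank correlation of 0.16 with level and -0.12 with the length of the locus (Spearman's rho over 36 genes, which share both libraries), given as a description.

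Other genes of the release pathway were taken from a companion list of 70, such as further synaptotagmins, syntaxins, Munc18 and synucleins, 69 of which were in the tables. In both libraries 58 were at 1 TPM or more, where the share of protein-coding genes was 58.8%. Of the 64 with enough counts for a ratio, 52 were lower in replicate 2, against 50.6% of the 13160 protein-coding genes. At least 2-fold lower were 6 (against 3.72%) and at least 2-fold higher 0 (against 0.775%), with a median of -0.25. The 5 highest were Napa (alpha-SNAP, which takes SNARE complexes apart after fusion) at 169 TPM, Marcks (an actin-binding membrane protein) at 141, Snap47 (a SNAP-25 relative) at 101, Dnajc5 (a vesicle chaperone) at 85.5 and Sncg (gamma-synuclein) at 71.4 TPM as means. Among those of 5 TPM or more, Syt5 had the lowest ratio, -1.58, at 9.43 and 3.30 TPM. The highest was that of Stx3, a syntaxin of other membranes, at 0.63 with 4.16 and 6.70 TPM. Napa and Dnajc5, which serve membrane traffic in all cells, had ratios of -0.13 and -0.12.

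Markers of cell types in the tissue differed between the pools in both directions, and their part in the differences of the release genes was not tested. The 12 neuron markers had a median ratio of -0.97, from -1.73 to -0.16, with 6 at least 2-fold lower. With spike-in scaling their median was -0.15, from -0.91 (Ina) to 0.66 (Elavl4), beside 0.81 over all 13160 genes. The other ratios given here are scaled to genes. The 10 progenitor markers had a median of -0.18, with 8 lower and 0 at least 2-fold lower. Cranial ganglion and neural crest markers were mixed: 5 of 10 were lower, 2 of them at least 2-fold, and 2 of the others at least 2-fold higher. Their ratios ran from -1.14 to 1.59, and their sum was 111 TPM in replicate 1 against 178 TPM in replicate 2. The 6 macrophage markers were all lower (sum 91.1 and 62.5 TPM, median -0.64), with 0 at least 2-fold lower, and the 6 erythroid markers summed to 14404 and 16294 TPM. Endothelial and mesenchyme markers had medians of 0.03 and -0.17. Surface ectoderm markers had 0.42 over the 4 with enough counts, with sums of 91.4 and 136.9 TPM. Of 8 glial markers 4 were at 1 TPM or more in both libraries, and Gfap, S100b, Aqp4 and Mog were at or below 0.32 TPM in each.

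**Figure D5:**
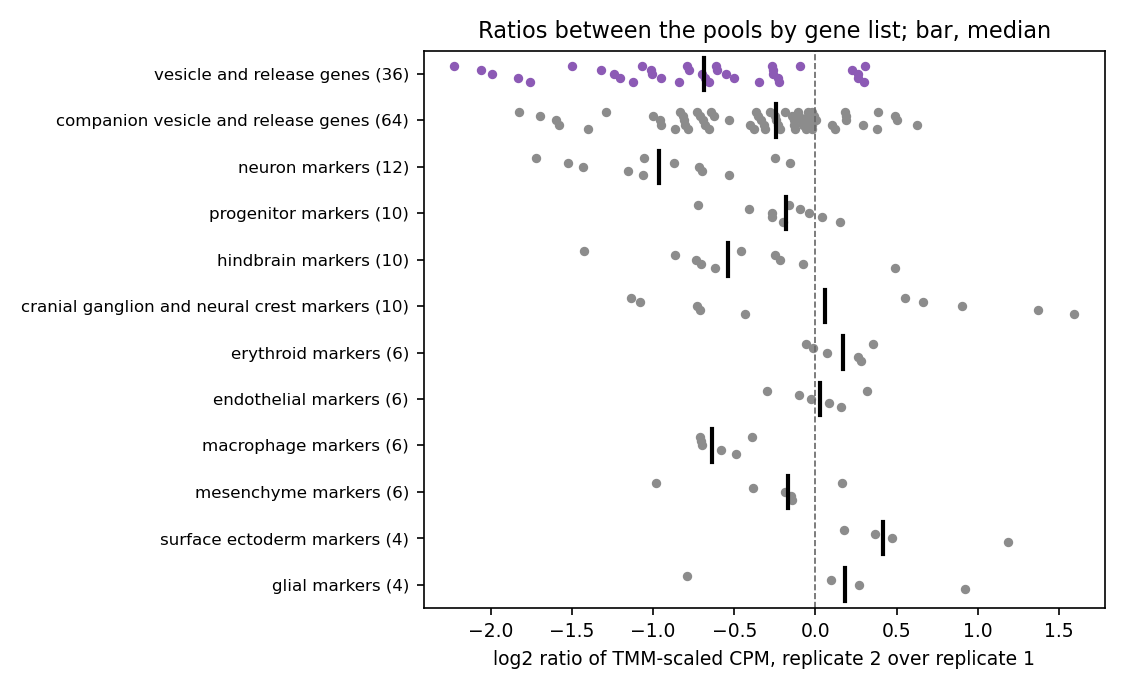
Log2 ratio, replicate 2 over replicate 1, of each gene with a CPM of at least 1 in both libraries, by gene list (number of genes in brackets); black bars are medians. The release genes have a median of -0.69, between those of the neuron markers (-0.97) and the progenitor markers (-0.18), and the hindbrain markers have -0.54.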

How the data were processed

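Total RNA over 200 nucleotides from 2 hindbrain pools was analysed. The deposited file notes name assembly mm10 with annotation M4; an aligner or quantification program is not given in the sources used here. Per the file headers, each gene and transcript holds an expected count, TPM and FPKM, and lower and upper bounds of TPM as other values. Per the file headers, the transcript tables give the percent of a gene in each isoform; shares printed here were computed from TPM instead. Spike-ins are part of the total of the deposited TPM. Gene identifiers, versions removed, were looked up in GENCODE M21, also mm10 (42462 of 43346 matched, 98.0%), which also gave coordinates and transcript sequences.

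Depth was 38170090 and 36382245 expected counts in genes, and the fewest for a listed gene were 49 (Rims1 in replicate 2). Expected counts were rounded, and log2 ratios (prior count 2, CPM of at least 1 in both libraries) used edgeR 4.0.16 with TMM scaling in R 4.3.3. The code was tested on simulated data with known folds, which does not show how precise the ratio of a single gene is here. DESeq2 1.42.0 gave alternative size factors. Tables were handled with pandas 2.3.3 and numpy 2.4.6 under Python 3.11.15, and figures drawn with matplotlib 3.10.9. Pair differences used log2(TPM + 0.1). Transcript forms used models whose length lay within 10 bases of M21. Values are descriptions: with 1 group no test was made, and what separated the pools (embryos, dissection or library) cannot be told apart.

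All 36 genes are named. Of the companion list, the 5 highest and, at 5 TPM or more, the lowest and highest ratio are named. Members, lists and rules were chosen with earlier results of these data known. Alternatives were other scalings, prior counts, thresholds, units, and each library alone.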

Additional observations from a re-analysis of the deposited data

How the results depend on the processing

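The count of genes detected in both libraries was 32 at 1 TPM and 15 at 5 TPM, and from 30 to 35 under the other thresholds, units and scalings. With either library alone it was 32 to 35. The median log2 ratio of -0.69 stayed between -0.70 and -0.59 under DESeq2 size factors, total counts, other prior counts, a filter on low genes and TPM, and was 0.13 with spike-in scaling, which moves all genes up. The count of genes at least 2-fold lower was 13, and 4 with spike-in scaling (the share over all genes was not computed there), while the other alternatives gave 11 to 13. The same leading transcript was found in 25 of 29 by TPM, counts or posterior mean. With Sv2b, Sv2c, Pclo and Rims1 added to the 29 it was found in 28, and Rims1 was a further gene that differed. By counts Dlg4 differed between the libraries and Nlgn1 did not. The log2 difference of Vamp2 over Vamp3 averaged -0.42 and ran from -0.88 without replicate 1 to 0.037 without replicate 2. Shares of the Snap25, Vamp2, Nlgn and Nrxn forms changed with the correction for length. No paired analysis was possible because there is 1 group. The design gives 2 libraries, so the spread between pools rests on 1 difference per gene; genes with fewer than 100 counts in a library, here Sv2b, Sv2c and Rims1, are the least precise.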
